A study of Mus musculus with 70 samples.

Results

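The libraries compared here were the 7 saline libraries of an isolation-method comparison in mouse forebrain microglia: 4 RiboTag pulldowns and 3 libraries of cells that were digested and sorted. They were 7 of the 70 libraries of the series and were chosen by their titles alone, so no measured value entered the choice. The series followed microglia of the mouse forebrain through ageing, immune challenge and models of amyloid and tau disease, and the method comparison was one of its controls. The tissue label of all 7 libraries was forebrain microglia. Of the 43346 genes in the deposited table, 13908 reached a mean of 1 RPKM (read count scaled to gene length and library size) over the saline and LPS libraries of both methods and were tested.

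Both groups came from mice of one genotype, double heterozygous Cx3cr1CreERT2-IRES-eYFP/+; Rpl22HA/+. These mice carry a tamoxifen-inducible Cre recombinase and yellow fluorescent protein in one allele of Cx3cr1, a chemokine receptor gene of microglia and other myeloid cells, and a floxed allele that adds a hemagglutinin (HA) epitope to the ribosomal protein RPL22 after recombination. One Cx3cr1 allele was thus modified in the sorted cells as well. All mice received tamoxifen at 100 µg/g on 3 days, rested for a week, and were perfused with PBS after saline, the control for an LPS challenge of 24 h. For RiboTag, the forebrain was sonicated at once in a detergent buffer with cycloheximide, which holds ribosomes on mRNA, and tagged ribosomes with their bound RNA were captured with anti-HA antibody. For sorting, the forebrain was digested with collagenase for 20 minutes, myelin was removed on Percoll, and live CD11b+ CD45lo/int cells were sorted to a stated purity above 98%. The labels gave neither age nor sex for these mice. Each library was taken as 1 animal, although nothing in the labels stated it, so p-values measure the spread between these samples, which may be partly technical. Which cells other than microglia carried the tag was not stated in the labels.

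The 2 methods read different things. A sorted-cell library holds all RNA of cells that survived dissociation and passed the gate. A RiboTag library holds RNA bound to tagged ribosomes in the intact tissue, plus whatever untagged RNA stays on the beads. Enzymatic dissociation at a warm temperature is widely known to induce immediate early genes and inflammatory cytokines in microglia. Microglia in the resting brain are recognised by a homeostatic set of genes that includes the purinergic receptor P2ry12 and the membrane protein Tmem119.

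Every RiboTag library held more reads in genes than every sorted library, and the libraries of each method agreed among themselves to different degrees. The sorted libraries held 28636211 to 30901855 reads in genes and the RiboTag libraries 31466838 to 47243648. By the total library size that the RPKM values imply, this order did not hold: RiboTag replicate 1 was the smallest of the 7 libraries. Reads in genes were 34.1% to 36.6% of that size in the sorted libraries and 36.1% to 42.7% in RiboTag. A read was found in 17315 to 18849 genes of a sorted library against 28070 to 28753 of a RiboTag library. Of the genes tested, 993 to 1317 were at 0 in a sorted library and 79 to 92 in a RiboTag library. Pearson's r between replicates, across genes on the log2(RPKM + 1) scale, was 0.68 to 0.76 for the sorted libraries and 0.91 to 0.98 for RiboTag. Among genes with a group mean of at least 10 RPKM, 6.2% of 2058 fell under 1 RPKM in some sorted library, and 0 of 1802 did in RiboTag. In homeostatic microglia genes, the RiboTag libraries fell into pairs. The summed level of 23 such genes was 1967, 2332, 774 and 849.9 RPKM in replicates 1 to 4, and 4324, 4546 and 4392 RPKM in sorted replicates 1 to 3. Across genes, Pearson's r of RiboTag replicate 3 was 0.95 with replicate 1 and 0.94 with replicate 4. In bulk libraries, a smaller share of microglial RNA in the library and less RNA of a gene per microglial cell cannot be told apart. For that reason, results are also given without RiboTag replicates 3 and 4, and after scaling every library to the geometric mean of the homeostatic genes.

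Of 13908 genes, 5555 (39.9%) passed an adjusted p of 0.05 in limma. In RiboTag, 3861 (27.8%) were higher and 1694 (12.2%) were lower than in sorted cells, and the median difference over all genes was 0.25 on the log2 scale. All log2 differences are RiboTag minus sorted on the log2(RPKM + 1) scale, which understates the change of low genes. The library values of both groups did not overlap for 6602 genes (47.5%), of which 4486 (32.3% of those tested) were higher and 2116 (15.2%) lower in RiboTag. Most of the higher genes were low in sorted cells: 2852 of the 3861 had a mean of 1 RPKM or more in RiboTag and a mean under 1 RPKM in sorted cells. Of the 8883 genes at a mean of 1 RPKM or more in both groups, 1003 were higher and 1233 were lower in RiboTag. Without RiboTag replicates 3 and 4, 2811 genes (20.5% of those tested) were higher and 812 (5.91%) lower. Scaled to the homeostatic genes, the median over all genes moved to 1.54, 9825 genes (70.6%) were higher and 344 (2.47%) were lower. The plot of list shares shows which kinds of gene lay on each side of the comparison.

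**Figure D1:**
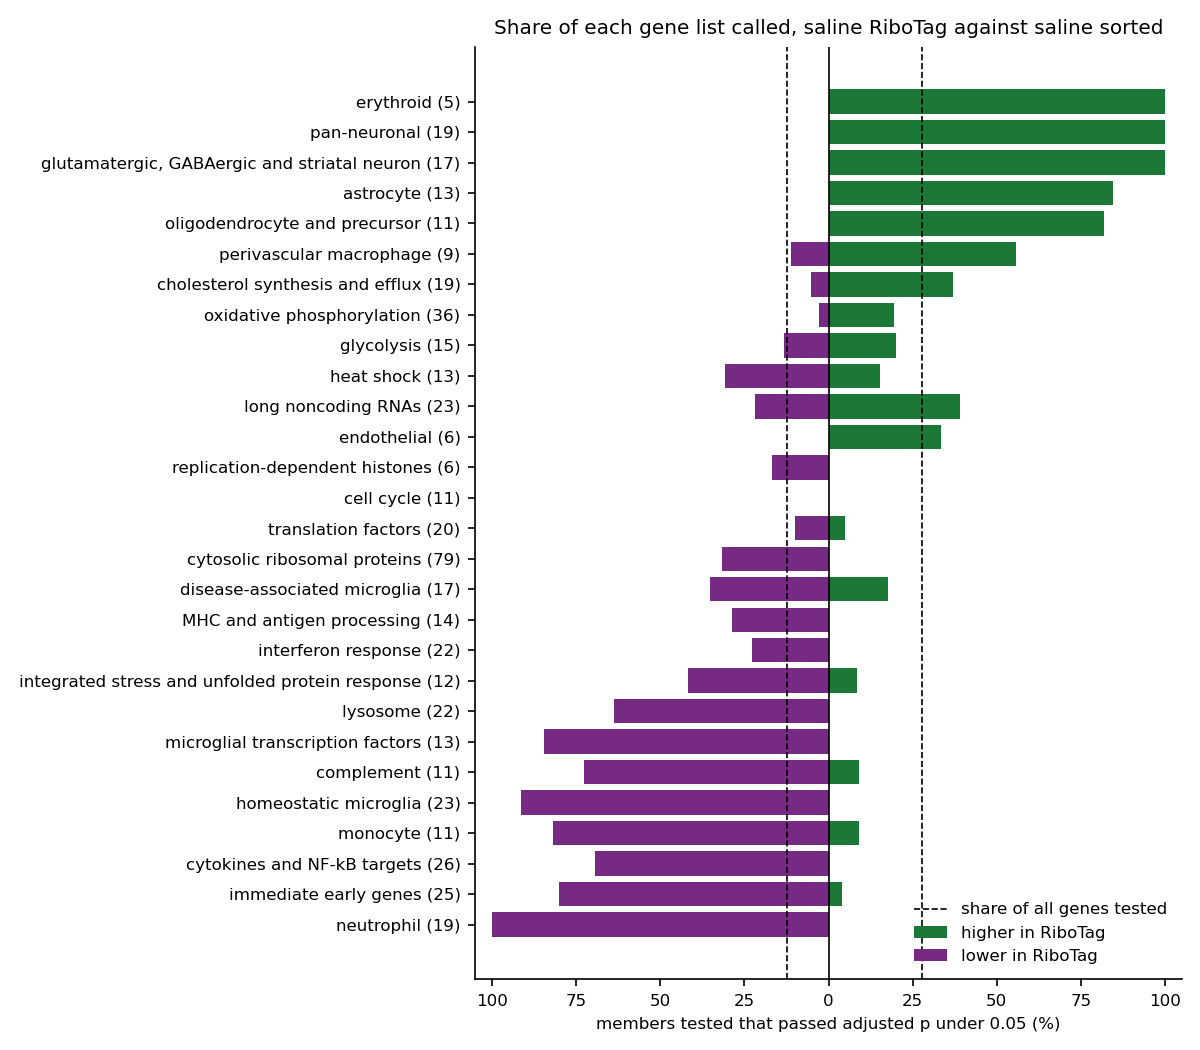
Share of each gene list, in percent of its members tested (number in brackets), that passed adjusted p under 0.05 in limma in the saline comparison. Bars to the right are genes higher in RiboTag and bars to the left genes lower in RiboTag; dashed lines mark the shares over all genes tested, 27.8% and 12.2%. Neutrophil genes were called lower in full and neuronal and erythroid genes higher in full.

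The tag and the driver were examined first. Rpl22, the gene that carries the HA tag, was at 4.95, 6.51, 4.73 and 3.38 RPKM in RiboTag replicates 1 to 4 and at 6.13, 4.64 and 2.24 RPKM in sorted replicates 1 to 3. The groups overlapped, and the difference of 0.19 ± 0.34 (SE) was not called (adjusted p = 0.702). The counts do not separate the tagged from the untagged allele. Cx3cr1, whose promoter drives Cre, was at 56.1, 75.7, 23.1 and 22.0 RPKM in RiboTag and 144, 172 and 191 RPKM in sorted cells. Every sorted library lay above every RiboTag library, and the gene was lower in RiboTag by -2.10 ± 0.38 (adjusted p = 0.000786). In bulk forebrain input, pooled from all cells, Cx3cr1 averaged 0.846 RPKM (n = 4), so both isolates were enriched for it.

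Both surface proteins of the sort gate had lower mRNA in RiboTag, and not by the same amount. Itgam, which encodes CD11b, a subunit of complement receptor 3, was at 56.1, 69.1, 25.02 and 24.8 RPKM in RiboTag and 173, 209 and 199.7 RPKM in sorted cells, which is a difference of -2.26 ± 0.35 (adjusted p = 0.000215). Ptprc, which encodes the leukocyte phosphatase CD45, was at 1.72, 2.09, 0.807 and 0.903 RPKM in RiboTag and 28.3, 28.3 and 27.0 RPKM in sorted cells, which is a difference of -3.64 ± 0.28 (adjusted p = 5.64e-07). The Ptprc values of the sorted libraries lay close together and far above all 4 pulldowns. After scaling to the homeostatic genes, Itgam was no longer called (-0.39, adjusted p = 0.101), whereas Ptprc stayed lower (-2.14, adjusted p = 5.07e-05). Cybb, the catalytic subunit of the phagocyte NADPH oxidase, moved as Ptprc did: it was at 2.10, 2.61, 0.655 and 0.771 RPKM in RiboTag and 34.7, 55.2 and 52.7 RPKM in sorted cells, a difference of -4.31 ± 0.35 that was -2.83 after scaling (adjusted p = 3.54e-06). Neutrophils also express Ptprc and Cybb, and neutrophil transcripts differed between the groups in the same direction, as described next. Their part in the Ptprc and Cybb differences was not tested.

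Neutrophil transcripts were abundant in the sorted cells and near the bulk-tissue level in RiboTag. All 19 neutrophil genes tested, of 23 listed, were lower in RiboTag, against 12.2% of all genes. Their median difference was -4.90, against 0.25 over all genes. Of the 19, 16 had a mean of 1 RPKM or more only in sorted cells among the saline groups. The filter took the mean over the saline and LPS libraries of both methods, so such genes could pass it through sorted libraries alone. S100a8 (chr3:90669071-90670034, mm10), a subunit of the granulocyte calcium-binding protein calprotectin, was at 2356, 7652 and 4281 RPKM in sorted replicates 1 to 3 and 2.40, 9.48, 1.23 and 1.25 RPKM in RiboTag replicates 1 to 4. Its partner S100a9 was at 2144, 7748 and 4480.3 RPKM in sorted cells and 1.76, 9.43, 2.41 and 2.17 RPKM in RiboTag. For S100a8, the mean in sorted cells was 1326 times that in RiboTag, and the difference was -10.19 ± 0.62 (adjusted p = 7.5e-08). Sorted replicate 2 was the highest sorted library for both genes and RiboTag replicate 2 the highest pulldown.

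The secondary-granule genes of maturing neutrophils followed the same order. Ngp, the neutrophilic granule protein, was at 487, 1369 and 821 RPKM in sorted cells and 0.306, 1.14, 0.309 and 0.464 RPKM in RiboTag (-9.07, adjusted p = 8.59e-09). Camp, the precursor of the antimicrobial peptide cathelicidin, was at 112, 369.9 and 287 RPKM in sorted cells and never above 0.315 RPKM in RiboTag. Ltf (lactoferrin), Lcn2 (lipocalin 2, an iron-siderophore binder) and Mmp8 (neutrophil collagenase) differed by -6.67, -7.18 and -6.57, each with no overlap between the groups. Ly6g, the surface antigen by which mouse neutrophils are usually identified, was at 21.4, 52.5 and 21.4 RPKM in sorted cells, had reads in only RiboTag replicate 1 among the pulldowns, and differed by -4.90 (adjusted p = 2.66e-06). Csf3r, the G-CSF receptor, which microglia also express, showed a smaller difference of -3.64 and was at 7.89, 10.2, 3.50 and 4.45 RPKM in RiboTag. Outside the list, Ifitm6, an interferon-induced transmembrane protein gene, Stfa2l1, a stefin family gene, and Anxa1, the phagocyte protein annexin A1, were among the 12 lowest genes of the comparison, at -7.44, -6.01 and -5.75.

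The summed level of all 23 neutrophil genes was 5677, 18669 and 10879 RPKM in the sorted libraries, 14.7, 34.2, 9.63 and 10.9 RPKM in the pulldowns and 6.29, 19.8, 4.95 and 26.2 RPKM in the bulk inputs. The sorted sums exceeded those of the homeostatic microglia list in each sorted library. The stated gate takes CD45lo/int cells, whereas neutrophils are CD45-high, and the stated purity was above 98%. The share of sorted events that these transcripts came from cannot be read from bulk libraries. Scaled to the homeostatic genes, all 19 stayed lower, against 2.47% of all genes, and without RiboTag replicates 3 and 4 the number was 18, against 5.91%. Because 16 of the 19 reached a mean of 1 RPKM only in sorted cells, the filter favoured such calls.

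**Figure D2:**
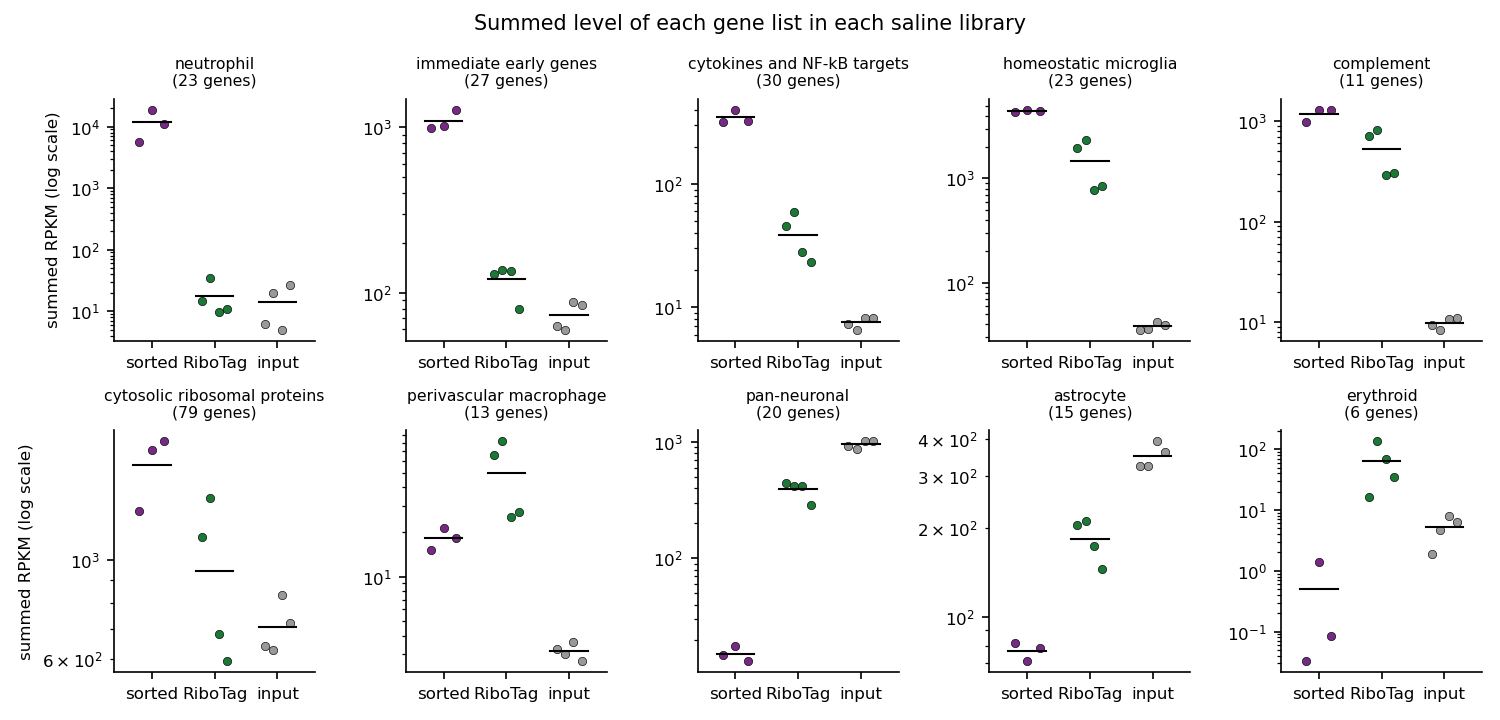
Summed RPKM (log axis, a different range in each panel) of 10 gene lists in the saline sorted (n = 3), RiboTag (n = 4) and bulk input (n = 4) libraries; each point is a library and each bar a group mean. Neutrophil sums reached 18669 RPKM in sorted cells and at most 34.2 RPKM in RiboTag, while pan-neuronal sums ran the other way.

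Monocyte genes were lower in RiboTag for 9 of 11 tested and higher for 1, against 12.2% and 27.8% of all genes, with a median of -2.07. Of the 11, 8 had a mean of 1 RPKM or more only in sorted cells. Chil3, a chitinase-like protein gene of monocytes and neutrophil precursors, was at 67.7, 176 and 72.0 RPKM in sorted cells and never above 0.230 RPKM in RiboTag (-6.41, adjusted p = 1.59e-07). Lyz2, the lysozyme of myeloid cells, was abundant in both, at 478, 1403 and 1020.5 RPKM in sorted cells and 161, 200.5, 45.3 and 51.2 RPKM in RiboTag (-3.23, adjusted p = 0.000512). Ccr2, the chemokine receptor of inflammatory monocytes, reached 7.74 RPKM in sorted cells and 1.46 RPKM in RiboTag, and its difference of -1.73 was no longer called after scaling to the homeostatic genes (-0.55, adjusted p = 0.142). The exception was Vcan, the matrix proteoglycan versican, higher in RiboTag by 1.33. Lymphocyte genes were mostly below the filter: 4 of 17 were tested and 2 were lower, against 12.2% of all genes. Ighm, the heavy chain of immunoglobulin M, was at 109, 139 and 154 RPKM in sorted cells and 76.9, 90.8, 39.7 and 27.7 RPKM in RiboTag, a difference of -1.32 (adjusted p = 0.0377) that was no longer called without RiboTag replicate 4 (adjusted p = 0.102) or any of several other single libraries. As for the microglial genes, pulldowns 1 and 2 were above 3 and 4. Klrd1, a receptor subunit of natural killer cells, differed by -1.90 (adjusted p = 0.0038). Igkc, an immunoglobulin light chain, was at 0, 185 and 0 RPKM in sorted replicates 1 to 3, so that its difference of -2.34 rested on replicate 2 and was not called (adjusted p = 0.211).

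Immediate early genes, which cells transcribe within minutes of a stimulus, were lower in RiboTag for 20 of 25 tested, with a median difference of -2.27. A further 1 was higher. Over all genes, 12.2% were lower and 27.8% higher. Of the 25, 8 had a mean of 1 RPKM or more only in sorted cells. The 4 with the smallest p-values were Jun, Zfp36, Atf3 and Fos. Their upstream sequences are shown to let the regulatory letters be read beside the expression values. Each is the 250 bases before the annotated start in RefSeq on GRCm38.p6, the assembly that mm10 names, on the gene's own strand from 5′ to 3′. Capitals mark every match on either strand to TGACGT, the common part of the cyclic AMP response element, to TATAAA, or to the CArG box that serum response factor binds. No 2 of the matches overlap.
Jun, chr4:95052223-95052472, minus strand: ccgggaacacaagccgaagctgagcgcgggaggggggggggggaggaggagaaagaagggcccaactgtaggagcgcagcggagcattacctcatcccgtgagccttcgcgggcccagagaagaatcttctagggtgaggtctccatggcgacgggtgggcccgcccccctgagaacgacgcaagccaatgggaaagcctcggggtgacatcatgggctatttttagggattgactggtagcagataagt
Zfp36, chr7:28379229-28379478, minus strand: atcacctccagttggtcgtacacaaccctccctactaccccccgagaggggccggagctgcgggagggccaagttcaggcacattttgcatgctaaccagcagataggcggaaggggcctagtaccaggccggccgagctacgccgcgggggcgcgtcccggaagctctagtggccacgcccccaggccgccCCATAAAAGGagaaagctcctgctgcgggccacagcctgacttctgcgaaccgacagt
Atf3, chr1:191183334-191183583, minus strand: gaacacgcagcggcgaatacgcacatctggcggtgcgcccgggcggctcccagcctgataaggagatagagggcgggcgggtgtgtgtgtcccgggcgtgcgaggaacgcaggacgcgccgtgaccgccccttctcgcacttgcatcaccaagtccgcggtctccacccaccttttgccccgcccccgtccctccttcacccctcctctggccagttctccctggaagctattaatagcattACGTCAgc
Fos, chr12:85473640-85473889, plus strand: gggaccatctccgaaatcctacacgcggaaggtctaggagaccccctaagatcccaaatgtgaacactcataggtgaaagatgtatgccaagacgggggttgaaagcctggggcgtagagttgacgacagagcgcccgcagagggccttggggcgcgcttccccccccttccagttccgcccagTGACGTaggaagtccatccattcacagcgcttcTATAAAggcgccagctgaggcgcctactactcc
TGACGT was found in the windows of Fos, 66 to 61 bases before the start, and Atf3, 8 to 3 bases before it. TATAAA was found only in that of Fos, at 33 to 28 bases, and a CArG box only in that of Zfp36, at 58 to 49 bases. The window of Jun held none of the 3 motifs. Sites more than 250 bases before the start were not searched, so a motif missing here may lie further upstream of the same gene. Over 32851 RefSeq promoter windows of the same length, 6.47% held TGACGT, 12.4% TATAAA and 1.47% a CArG box. Of 27 immediate early genes in the table, 22 matched the RefSeq promoter set by symbol.

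The AP-1 subunit genes stood far apart between the methods. Fos was at 63.4, 75.5 and 114 RPKM in sorted replicates 1 to 3 and 2.50, 2.33, 3.45 and 2.02 RPKM in RiboTag replicates 1 to 4, a difference of -4.55 ± 0.31 (adjusted p = 1.79e-07). Jun was at 56.6, 61.1 and 63.2 RPKM in sorted cells and 2.80, 3.52, 1.79 and 1.24 RPKM in RiboTag (-4.25 ± 0.25, adjusted p = 6.58e-08). In bulk input, Fos averaged 3.25 and Jun 2.19 RPKM, within the range of the pulldowns for both genes. The sorted libraries lay close together for Jun and spread more for Fos, and for both genes every one of them was above every pulldown.

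Zfp36, an RNA-binding protein that destabilises cytokine mRNAs, had the largest difference of the list: it was at 266, 254 and 242 RPKM in sorted cells and 5.97, 7.85, 6.31 and 2.31 RPKM in RiboTag (-5.36 ± 0.33, adjusted p = 8.72e-08). Atf3, a stress-induced bZIP factor, was at 19.5, 22.7 and 22.8 RPKM in sorted cells and 1.03, 1.36, 0.526 and 0.558 RPKM in RiboTag (-3.62, adjusted p = 1.32e-07). The bulk input means of 0.929 RPKM for Zfp36 and 0.0830 RPKM for Atf3 lay below all pulldowns and all sorted libraries. Dusp1, a phosphatase of MAP kinases, Ier2, an immediate early transcriptional regulator, and Egr1, a zinc-finger factor of the same class, differed by -3.45, -3.51 and -2.77. The single member higher in RiboTag was Nr4a2, an orphan nuclear receptor that neurons also express, at 4.56, 5.21, 6.96 and 6.16 RPKM in RiboTag and 0.933, 0.0377 and 1.08 RPKM in sorted cells (2.05, adjusted p = 0.0023). Its input mean of 5.18 RPKM lay within the range of the pulldowns. After scaling to the homeostatic genes, 12 members stayed lower, against 2.47% of all genes, and 2 were higher, against 70.6%. Without RiboTag replicates 3 and 4, 18 were lower, against 5.91% of all genes.

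Cytokine, chemokine and NF-kB target genes were also lower in RiboTag. Of 26 tested, 18 were lower, against 12.2% of all genes, with a median of -2.14, and the other 8 were not called. Of the 26, 11 had a mean of 1 RPKM or more only in sorted cells. Il1b, the inflammatory cytokine interleukin 1 beta, was at 32.9, 52.4 and 47.2 RPKM in sorted cells and 0.282, 0.468, 0.345 and 0.116 RPKM in RiboTag, a difference of -5.10 ± 0.22 (adjusted p = 8.52e-09). Every sorted library was far above the highest pulldown. Il1a, its relative, lay between 28.6 and 32.4 RPKM in the 3 sorted libraries and was at 4.97, 7.00, 1.80 and 2.20 RPKM in RiboTag, with pulldowns 1 and 2 above 3 and 4 (-2.78, adjusted p = 2.09e-05).

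Chemokine levels varied more among the sorted libraries. Ccl4, an inflammatory chemokine, was at 51.0, 13.7 and 8.35 RPKM in sorted cells and 0.258, 0.248, 0.139 and 0.0436 RPKM in RiboTag (-4.04, adjusted p = 6.33e-05). Ccl3, a closely related chemokine, was at 58.1, 53.9 and 80.9 RPKM in sorted cells and 3.88, 4.56, 1.32 and 0.840 RPKM in RiboTag (-4.29). Cxcl2, a neutrophil attractant, had 0 reads in all 4 pulldowns and was at 1.06, 10.9 and 3.00 RPKM in sorted cells. With a floor of 3 reads in each pulldown, the mean of Cxcl2 in sorted cells was at least 161 times that in RiboTag. Sorted replicate 2 was the highest in that mean. Nfkbia and Nfkbid, inhibitors of NF-kB that are themselves its targets, differed by -3.22 and -2.81, with sorted values of 25.1, 20.1 and 19.5 RPKM for Nfkbia and 10.2, 7.18 and 8.75 RPKM for Nfkbid. Tnf was low in both groups, at 5.28, 6.64 and 1.89 RPKM in sorted cells and never above 0.192 RPKM in RiboTag. After scaling to the homeostatic genes, 12 of the 26 stayed lower and 1 was higher, against 2.47% and 70.6% of all genes. The higher gene was Ccl12, a ligand of CCR2 (1.19, adjusted p = 0.026 in limma).

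**Figure D3:**
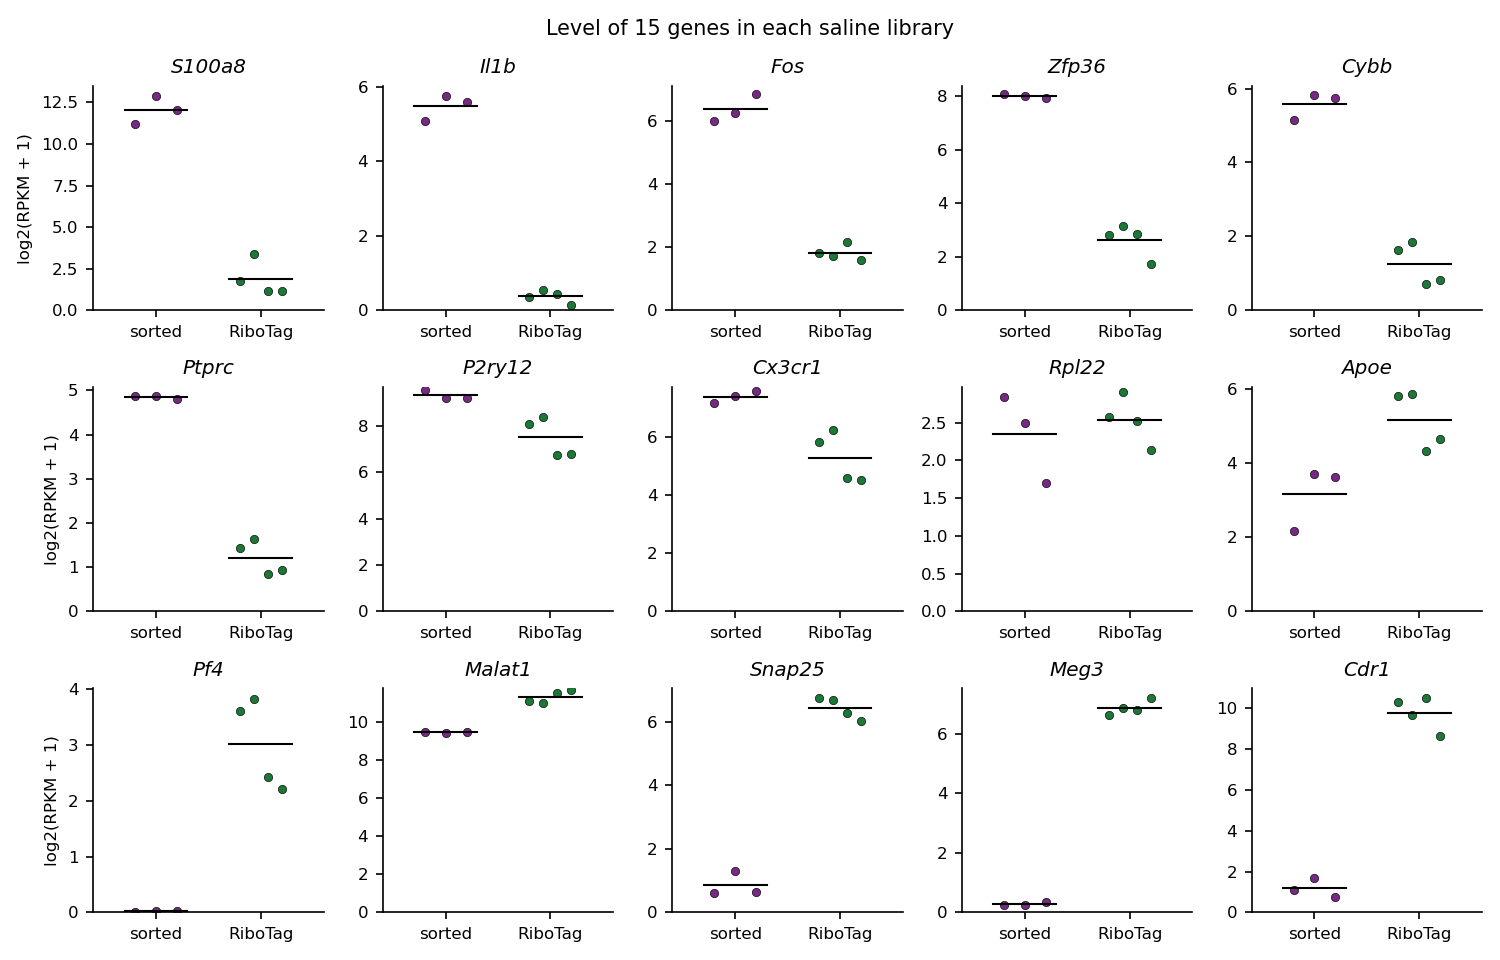
Level of 15 genes, as log2(RPKM + 1) on an axis that starts at 0, in the 3 saline sorted and 4 saline RiboTag libraries; each point is a library and each bar the group mean. The groups are separate for S100a8, Il1b, Fos, Zfp36, Cybb, Ptprc, P2ry12 and Cx3cr1, which are lower in RiboTag, overlap for Rpl22, and are separate for the last 6 genes, which are higher in RiboTag.

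Other stress programmes did not move as one. Of 13 heat-shock genes, 4 were lower and 2 higher in RiboTag, against 12.2% and 27.8% of all genes, with a median of 0.01. Dnajb1, a co-chaperone of HSP70, was lower by -1.64, at 8.40, 16.1 and 26.9 RPKM in sorted cells. Hsph1, a nucleotide exchange factor for HSP70, was higher in RiboTag, at 8.96, 8.27, 10.1 and 8.85 RPKM against 0.119, 1.62 and 1.29 RPKM in sorted cells (2.41 ± 0.29, adjusted p = 2.11e-05). The bulk input mean of Hsph1 was 10.8 RPKM, slightly above the pulldowns. Hsp90aa1, the inducible HSP90 isoform, was higher by 1.07 (adjusted p = 0.00586). Of 12 genes of the integrated stress and unfolded protein responses, 5 were lower and 1 higher, against 12.2% and 27.8% of all genes. Atf4, the factor translated when initiation factor eIF2 is phosphorylated, was at 37.6, 41.1 and 41.0 RPKM in sorted cells and 14.0, 16.3, 11.9 and 8.28 RPKM in RiboTag (-1.62, adjusted p = 0.000761). Asns, asparagine synthetase and an ATF4 target, ran the other way (2.01, adjusted p = 0.00992), with sorted values of 0.00863, 1.62 and 0.0216 RPKM. After scaling to the homeostatic genes, 9 of the 13 heat-shock genes and 4 of these 12 were higher, against 70.6% of all genes.

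The homeostatic microglia genes were lower in RiboTag for 21 of 23 tested, against 12.2% of all genes, with a median of -1.85. All 23 had a mean above 1 RPKM in both groups. P2ry12, the ADP receptor that steers microglial processes, was at 270.3, 339, 108 and 109 RPKM in RiboTag and 748, 588 and 599 RPKM in sorted cells (-1.82 ± 0.39, adjusted p = 0.00257). Tmem119 was at 115, 133, 41.4 and 52.1 RPKM in RiboTag and 189, 299 and 293 RPKM in sorted cells (-1.73 ± 0.40, adjusted p = 0.00393). For both genes replicates 1 and 2 were the highest pulldowns, replicates 3 and 4 were far lower, and no pulldown reached the sorted range.

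The differences within this list were not uniform. Ltc4s, which makes leukotriene C4, Tgfbr1, the type I TGF-beta receptor, and Mertk, a receptor for apoptotic cells, had the largest, at -2.74, -2.30 and -2.26. Trem2, a lipid-sensing receptor, and Tyrobp, its signalling adaptor DAP12, differed by -1.45 and -1.59. Fcrls, an Fc receptor-like scavenger receptor, and Slc2a5, a fructose transporter, were not called, at -0.97 (adjusted p = 0.0656) and -1.03 (adjusted p = 0.166). Without RiboTag replicates 3 and 4, 16 of 23 were lower, against 5.91% of all genes. With weights that let each group have its own spread, 8 were lower, against 9.44% of all genes, and neither P2ry12 nor Tmem119 was called. After scaling to the list itself, whose median that fixes near 0, Ltc4s remained lower by -0.99 (adjusted p = 0.0214), and 3 members were higher, among them Fcrls and Itgb5, an integrin subunit, by 0.91 and 0.62.

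Microglial transcription factors were lower in RiboTag for 11 of 13, against 12.2% of all genes, with a median of -1.44. The number was 6 without RiboTag replicates 3 and 4 and 6 with array weights, against 5.91% and 9.44% of all genes. After scaling to the homeostatic genes, 0 were lower in limma and 4 were higher, against 70.6% of all genes. Runx1, Ikzf1 and Sall3, factors of the haematopoietic and spalt families, differed by -1.90, -1.87 and -1.66. Runx1 was at 3.18, 4.27, 1.37 and 1.42 RPKM in RiboTag and 11.8, 12.3 and 10.5 RPKM in sorted cells (adjusted p = 0.000154). Complement genes were lower for 8 of 11, against 12.2% of all genes, or 5 without RiboTag replicates 3 and 4, against 5.91%. They were higher for 1, C4b. C1qa, C1qb and C1qc, the chains of the initiating complex of the classical pathway, differed by -1.77, -0.85 and -1.34, and C1qb was not called (adjusted p = 0.101). C3, the central component, was at 2.21, 17.7 and 10.7 RPKM in sorted cells and never above 0.127 RPKM in RiboTag (-3.02, adjusted p = 0.000241), and it was the only complement gene still lower after scaling to the homeostatic genes (-2.08, adjusted p = 0.000371).

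Lysosomal genes were lower for 14 of 22, against 12.2% of all genes, with a median of -1.08. Ctsd, the protease cathepsin D, was at 451, 475, 172 and 209.7 RPKM in RiboTag and 719, 804 and 1028 RPKM in sorted cells (-1.50, adjusted p = 0.00399). Laptm5, a lysosomal membrane protein of leukocytes, and Lgmn, an asparaginyl endopeptidase, differed by -1.85 and -1.73. With array weights 0 lysosomal genes were called in limma, against 14 in the fit without weights, 16 at an unadjusted p under 0.05 and 20 with limma voom, and after scaling to the homeostatic genes 14 were higher, against 70.6% of all genes. Antigen-presentation genes were lower for 4 of 14, against 12.2% of all genes. H2-K1, a class I heavy chain whose reads may be shared with its close relatives, was at 14.6, 18.4, 7.63 and 6.65 RPKM in RiboTag and 42.3, 52.6 and 99.7 RPKM in sorted cells (-2.37, adjusted p = 0.000233). Interferon-response genes were lower for 5 of 22, against 12.2% of all genes. Without RiboTag replicates 3 and 4, 1 of the 22 was lower, against 5.91% of all genes. The 5 were led by Ifitm3, a restriction factor for enveloped viruses, at 11.6, 10.4, 6.20 and 3.63 RPKM in RiboTag and 56.3, 77.4 and 71.2 RPKM in sorted cells (-3.05, adjusted p = 2.32e-05).

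Genes of disease-associated microglia, a state described around amyloid plaques, fell on both sides of the comparison. Of 17 tested, 6 were lower and 3 higher in RiboTag, against 12.2% and 27.8% of all genes. Without RiboTag replicates 3 and 4, 3 were lower and 3 higher, and after scaling to the homeostatic genes 1 was lower and 8 were higher, against 2.47% and 70.6% of all genes. Besides Cybb and Ctsd, the lower members were Cd52, Lgals3, Clec7a and Cd9, which encode a lymphoid surface glycoprotein, galectin 3, the beta-glucan receptor dectin 1 and a tetraspanin, with differences of -2.39, -1.73, -1.68 and -1.08. The calls of Lgals3, Clec7a and Cd9 were lost without RiboTag replicates 3 and 4, and each was lost when a single library was left out, sorted replicate 2 among them, with adjusted p up to 0.0748, 0.133 and 0.122. The higher members were Apoe, Igf1 and Axl. Apoe, the lipid carrier apolipoprotein E, was at 54.4, 57.0, 18.9 and 24.1 RPKM in RiboTag replicates 1 to 4 and 3.48, 11.9 and 11.4 RPKM in sorted replicates 1 to 3 (1.99 ± 0.50, adjusted p = 0.0072). As for P2ry12, replicates 1 and 2 were the highest pulldowns, and the bulk input mean was 19.0 RPKM, close to pulldowns 3 and 4. In the saline pulldowns of a separate Poly(I:C) experiment of the series, Apoe averaged 14.0 RPKM (n = 3). Astrocytes also express Apoe, and 11 of 13 astrocyte genes tested were higher in RiboTag. Their part in the Apoe difference was not tested. Igf1, a growth factor, was at 2.88, 2.93, 3.15 and 0.846 RPKM in RiboTag and at most 0.0822 RPKM in sorted cells (1.66, adjusted p = 0.000508), and Axl, a receptor tyrosine kinase related to Mertk, differed by 0.99.

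Perivascular macrophage genes were higher in RiboTag for 5 of 9 tested and lower for 1, against 27.8% and 12.2% of all genes. These cells lie along brain vessels, express CX3CR1 and share the Cre driver. Of the 9, 4 had a mean of 1 RPKM or more only in RiboTag. Pf4, the chemokine platelet factor 4, was at 11.2, 13.2, 4.38 and 3.62 RPKM in RiboTag and 0, 0.0217 and 0.0202 RPKM in sorted cells (3.00 ± 0.37, adjusted p = 3.17e-05). Mrc1, the mannose receptor CD206, was at 13.3, 16.6, 4.36 and 5.54 RPKM in RiboTag and 1.17, 0.288 and 3.96 RPKM in sorted cells (2.01, adjusted p = 0.00815). Both genes were higher in pulldowns 1 and 2 than in 3 and 4, as microglial genes were. Cbr2, a carbonyl reductase of border macrophages, had 0 reads in all sorted libraries and was at 4.52, 6.23, 1.40 and 1.95 RPKM in RiboTag. With a floor of 3 reads in each sorted library, its mean in RiboTag was at least 128 times that in sorted cells. Lyve1, a hyaluronan receptor, and Dab2, an endocytic adaptor, were higher by 1.89 and 2.42. Stab1, a scavenger receptor, was the exception, at 3.01, 3.13, 0.949 and 1.40 RPKM in RiboTag and 10.4, 12.5 and 7.92 RPKM in sorted cells (-1.90, adjusted p = 0.000148). The summed level of the 13 genes was 66.3, 81.9, 25.5 and 27.3 RPKM in the pulldowns, 15.03, 21.2 and 18.3 RPKM in sorted cells and at most 3.599 RPKM in input.

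Neuronal genes were higher in RiboTag throughout. All 19 pan-neuronal genes tested and all 17 genes of glutamatergic, GABAergic and striatal neurons were higher, against 27.8% of all genes, with medians of 3.34 and 2.97. Of these 36, 33 had a mean of 1 RPKM or more only in RiboTag. Snap25, a component of the synaptic vesicle fusion complex, was at 107, 101.3, 76.4 and 64.1 RPKM in RiboTag and 0.537, 1.49 and 0.568 RPKM in sorted cells (5.57 ± 0.25, adjusted p = 1.02e-08). Gria2, an AMPA receptor subunit, was at 42.3, 42.2, 50.3 and 70.0 RPKM in RiboTag and at most 0.0853 RPKM in sorted cells (5.59, adjusted p = 7.52e-09). Pulldown 4, one of the pair low in microglial genes, was the lowest for Snap25 and the highest for Gria2.

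The neuronal levels in the pulldowns were those of a fraction of bulk tissue for some genes and above it for others. The bulk input mean was 294 RPKM for Snap25 and 199 RPKM for Vsnl1, a neuronal calcium sensor, against pulldown means of 87.3 and 57.4 RPKM. For Gria2 and Peg3, an imprinted zinc-finger gene, the input means of 24.0 and 24.0 RPKM lay below the pulldown means of 51.2 and 52.8 RPKM. Kif5a, a kinesin of axonal transport, Ndrg4, a neuronal NDRG family gene, and Atp1b1, a sodium pump subunit, were also among the 12 highest genes, at 5.49, 5.37 and 5.49. The summed pan-neuronal level was 441, 419.8, 416 and 289 RPKM in the pulldowns, 921, 866, 1014 and 1014 RPKM in the inputs and 14.7, 17.5 and 12.97 RPKM in sorted cells.

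Astrocyte genes were higher in RiboTag for 11 of 13, against 27.8% of all genes, with a median of 2.62. All 11 had a mean of 1 RPKM or more only in RiboTag. Slc1a2, the main glutamate transporter of astrocytes, was at 44.0, 47.4, 41.5 and 33.6 RPKM in RiboTag and 0.182, 1.17 and 0.705 RPKM in sorted cells (4.69, adjusted p = 1.67e-08), below its input mean of 114 RPKM. The 2 members not called were Glul, glutamine synthetase, and Slc1a3, another glutamate transporter, both present in sorted cells, at 77.8, 60.8 and 67.9 RPKM for Glul and 3.19, 8.31 and 9.30 RPKM for Slc1a3. Oligodendrocyte genes were higher for 9 of 11, against 27.8% of all genes, and 9 members had a mean of 1 RPKM or more only in RiboTag. Such members could pass the filter through the pulldowns of saline or LPS alone. With Sox10, at 0 reads in all sorted libraries, set at its bound, the median of that list was 2.67 in place of 2.36. All 3 choroid plexus genes tested were higher, against 27.8% of all genes, each at a mean of 1 RPKM or more only in RiboTag. They included Enpp2, the enzyme autotaxin (4.52), and Ttr, transthyretin (4.54). The input mean of Ttr was 123 RPKM, against 37.4, 33.9, 20.2 and 17.0 RPKM in the pulldowns. Of 6 endothelial genes, 2 were higher, near the 27.8% of all genes, with a list median of -0.018. They were Slco1a4, an organic anion transporter of the blood-brain barrier (3.14), and Flt1, a VEGF receptor (1.39). Mural and fibroblast genes had 3 of 11 members tested and 1 higher, near the 27.8% of all genes. It was Rgs5, a G-protein regulator of pericytes, at 6.10, 8.10, 5.74 and 3.22 RPKM in RiboTag and at most 0.0365 RPKM in sorted cells (2.67).

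Globin and other red-cell genes were higher in all 5 members tested, against 27.8% of all genes, each at a mean of 1 RPKM or more only in RiboTag. Hbb-bs, an adult beta globin, was at 5.59, 51.6, 27.0 and 11.2 RPKM in RiboTag replicates 1 to 4, at most 0.0295 RPKM in sorted cells, and at a mean of 1.31 RPKM in input. Pulldown 2 was the highest and pulldown 1 the lowest, although pulldowns 1 and 2 were alike in microglial genes. Reads of the near-identical globin copies may be split between them.

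Long noncoding RNAs included some of the largest differences in both directions. Of 23 tested, 9 were higher and 5 lower in RiboTag, against 27.8% and 12.2% of all genes, with a list median of -0.013. Snhg11, a small nucleolar RNA host gene that the deposited table lists as protein-coding, was at 186, 187, 213 and 267 RPKM in RiboTag and 0.247, 0.187 and 0.425 RPKM in sorted cells (7.37 ± 0.20, adjusted p = 2.25e-09). Meg3, a maternally expressed imprinted RNA, was at 99.1, 116, 111 and 146 RPKM in RiboTag and 0.196, 0.200 and 0.264 RPKM in sorted cells (6.60, adjusted p = 2.25e-09). Rian and Mirg, transcribed from the same imprinted domain as Meg3, were higher by 4.41 and 2.21, and Miat, a nuclear RNA of neurons, by 3.77. The pulldown means of these genes were near their bulk input means, at 118 and 99.3 RPKM for Meg3.

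Malat1, a nuclear-retained RNA and the most abundant noncoding transcript here, was at 2195, 2063, 3009 and 3314 RPKM in RiboTag and 713, 700.4 and 719 RPKM in sorted cells (1.87 ± 0.19, adjusted p = 4.95e-06). The RiboTag level exceeded the input mean of 927 RPKM as well, and pulldowns 3 and 4, the lowest in microglial genes, were the highest for Malat1. The 3 sorted libraries lay close together. Neat1, the scaffold of nuclear paraspeckles, was lower in RiboTag by -0.94 (adjusted p = 0.00818). Mir142hg, the host transcript of a miRNA of blood cells, was at 13.9, 29.7 and 79.6 RPKM in sorted cells and never above 0.389 RPKM in RiboTag (-4.72, adjusted p = 4.46e-06). The miRNA hairpin loci Mir29c and Mir1906-1 were among the 12 highest entries, at 6.43 and 6.55. Reads at such short loci in these libraries can come from a host transcript, and whether counting used strand is not stated.

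Genes enriched in pulldowns over bulk tissue lay on both sides of the comparison. Enrichment was taken from other libraries, the saline pulldowns of the Poly(I:C) experiment (n = 3) against the bulk inputs (n = 4). Of 966 tested genes with at least 4 times the input level there, 302 (31.3%) were lower and 183 (18.9%) higher in RiboTag than in sorted cells, with a median of -0.45. With a bound of 2 times the input, 804 (19.9%) of 4041 were lower and 958 (23.7%) higher. With 8 times, 87 (36.1%) of 241 were lower and 33 (13.7%) higher. Over all genes tested, 12.2% were lower and 27.8% higher. At each bound, the enriched genes thus had a larger share lower and a smaller share higher. Of 3382 genes below their input level there, 272 (8.0%) were lower and 1065 (31.5%) higher, with a median of 0.35. The lower genes of the enriched set were led by Zfp36, Mir142hg, Ccl4 and Csf3r, all given above, and by Lyz2. Rasal3 and Arhgap9, regulators of small GTPases, differed by -3.24 and -3.21. Gngt2, a G-protein gamma subunit, Mxd1, a partner of MAX, and Nfam1, an immune receptor adaptor, differed by -3.24, -3.22 and -3.21.

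The higher genes of the enriched set were led by Cdr1 (chrX:61183246-61185558, mm10), a single-exon gene overlapped by an antisense transcript. Cdr1 was at 1247, 804, 1451 and 398 RPKM in RiboTag replicates 1 to 4 and 1.13, 2.24 and 0.701 RPKM in sorted replicates 1 to 3, the largest difference in the higher direction of the genes named by rule (8.58 ± 0.46, adjusted p = 3.05e-08). Without stated strand counting, reads of Cdr1 and of its antisense partner cannot be told apart. Its mean was 253 RPKM in input and 1402 RPKM in the Poly(I:C) pulldowns. Igf2, an insulin-like growth factor of the meninges and choroid plexus, was at 21.0, 16.1, 31.1 and 2.48 RPKM in RiboTag and at most 0.0186 RPKM in sorted cells (3.82, adjusted p = 0.000439). Its mean was 3.65 RPKM in input and 63.2 RPKM in the Poly(I:C) pulldowns.

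The remaining members of that group, except Pf4, shared their highest and lowest pulldown with Cdr1 and Igf2. Lin28b, an RNA-binding repressor of let-7 maturation, was at 8.10, 6.25, 11.1 and 4.79 RPKM in RiboTag and at most 0.00877 RPKM in sorted cells (3.04, adjusted p = 1.53e-06). Sowaha, an ankyrin-repeat gene, was at 17.8, 17.9, 29.6 and 7.43 RPKM in RiboTag and at most 0.0384 RPKM in sorted cells (4.08). Arpp19, a phosphatase regulator, was at 65.0, 57.8, 79.5 and 18.4 RPKM in RiboTag and 3.45, 3.81 and 1.31 RPKM in sorted cells (3.75). E2f6, a transcriptional repressor, Shisa7, a GABA-A receptor auxiliary protein, Runx1t1, a transcriptional corepressor, and Col4a2, a basement membrane collagen, differed by 3.40, 3.53, 3.03 and 2.84. In each of these 9 genes pulldown 3 was the highest and pulldown 4 the lowest, whereas Pf4, also named from this set, was highest in pulldowns 1 and 2, as microglial genes were. In each of the 9, the mean of the Poly(I:C) pulldowns was above that of the 4 pulldowns compared here. The genes of this set were chosen by a high level in the Poly(I:C) pulldowns over input, so the choice favoured that order. For P2ry12, the mean of the Poly(I:C) pulldowns was below, at 33.7 RPKM against 207 RPKM.

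**Figure D4:**
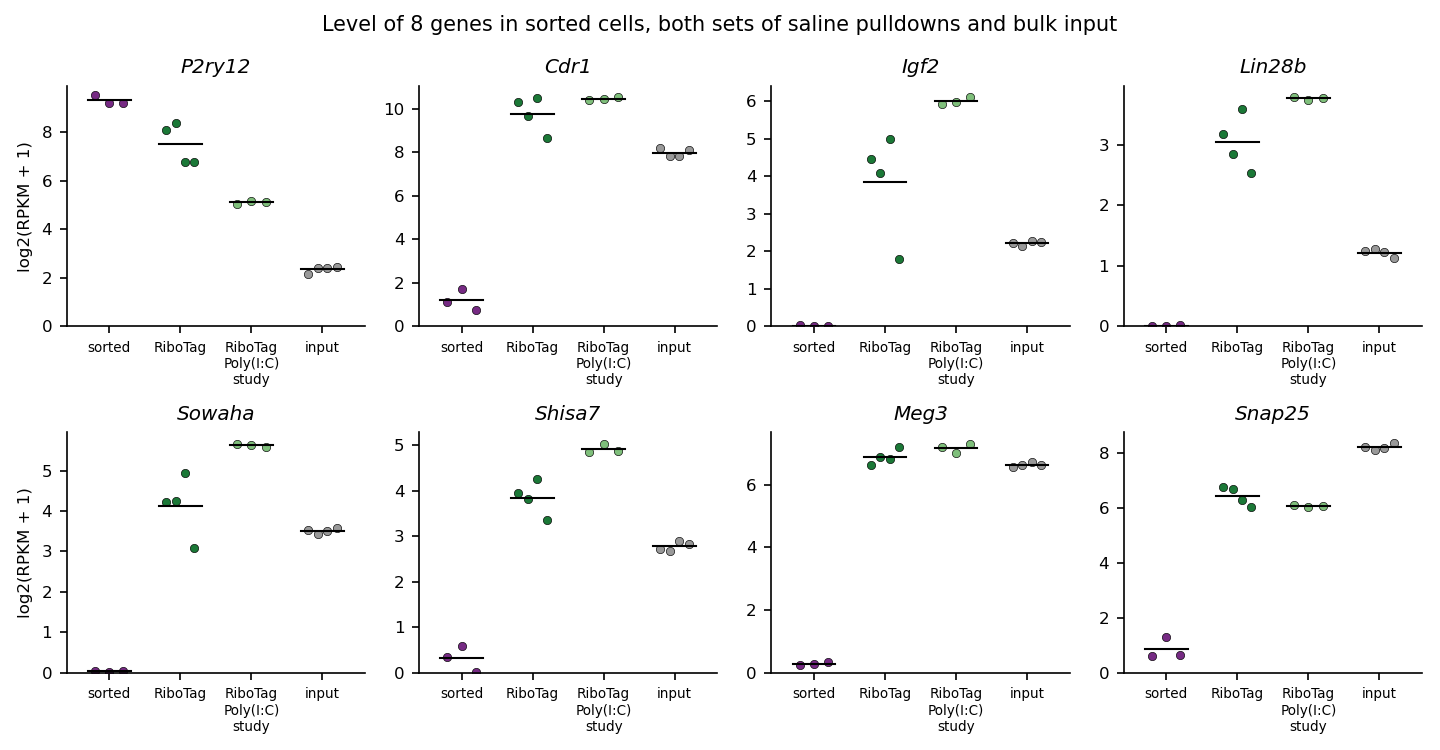
Level of 8 genes, as log2(RPKM + 1) on an axis that starts at 0, in saline sorted cells (n = 3), the saline RiboTag libraries compared here (n = 4), the saline RiboTag libraries of the Poly(I:C) study (n = 3) and bulk input (n = 4); each point is a library and each bar a group mean. Cdr1, Igf2, Lin28b, Sowaha and Shisa7 are higher in both sets of pulldowns than in sorted cells and highest in the Poly(I:C) study, where P2ry12 is lower, while Snap25 is highest in input. Cdr1, Igf2, Lin28b, Sowaha and Shisa7 were chosen partly by a high level in the Poly(I:C) study over input.

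Of 79 cytosolic ribosomal protein genes, 25 were lower in RiboTag, against 12.2% of all genes, with a median of -0.58 against 0.25, and the others were not called. Rps27 and Rpl36, short members of the small and large subunit, were at 33.3, 41.5, 22.7 and 17.2 and 12.2, 12.0, 6.16 and 5.51 RPKM in RiboTag, and at 117, 98.0 and 125 and 35.0, 31.1 and 37.2 RPKM in sorted cells (-2.01 and -1.90). Without RiboTag replicates 3 and 4 the number lower was 7, and with array weights it was 3, against 5.91% and 9.44% of all genes. Scaled to the homeostatic genes, 55 of the 79 were higher, near the 70.6% of all genes. Reads of processed pseudogenes may be shared with these genes. Of 36 oxidative phosphorylation genes of the nucleus, 7 were higher and 1 lower, and of 20 translation factor genes, 1 was higher and 2 were lower, against 27.8% and 12.2% of all genes. After the scaling, 35 of the 36 and 19 of the 20 were higher. All 37 mitochondrial genes were listed at 0 in the table and were not analysed here.

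Among 15 glycolysis genes, 3 were higher and 2 lower, near the shares of all genes. Pfkp, the platelet isoform of phosphofructokinase, was higher by 2.57 (adjusted p = 1.78e-05), and Hk2, an inducible hexokinase, was lower by -1.51 (adjusted p = 0.00206). Of 19 genes of cholesterol synthesis and efflux, 7 were higher and 1 lower, against 27.8% and 12.2% of all genes. Sqle and Cyp51, enzymes of sterol synthesis, were higher by 2.11 and 1.67. Sqle was at 3.51, 3.68, 4.49 and 3.69 RPKM in RiboTag and at most 0.292 RPKM in sorted cells. Abca1, the cholesterol efflux pump, was lower, at 5.78, 6.18, 3.82 and 3.39 RPKM in RiboTag and 26.5, 22.2 and 16.4 RPKM in sorted cells (-1.98, adjusted p = 3.66e-05). Of 11 cell-cycle genes, 0 were called in limma, against 2 at an unadjusted p under 0.05 and 1 with limma voom. Of 6 replication-dependent histone genes, 1 was lower, near the 12.2% of all genes. It was Hist1h1c, a linker histone (-1.89, adjusted p = 0.0107).

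By annotated class, small-RNA entries were counted beside protein-coding genes. Of 292 snoRNA entries tested, 97 (33.2%) were higher and 6 (2.1%) lower in RiboTag. Of 368 miRNA entries, 149 (40.5%) were higher and 18 (4.9%) lower, and of 11036 protein-coding genes, 2975 (27.0%) were higher and 1390 (12.6%) lower. Such short entries can lie within longer transcripts, whose reads may be counted there. Among protein-coding genes, the median annotated length was 4855 bases for those higher, 3946 for those lower and 3632 for those not called.

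The LPS libraries gave the same comparison in separate animals, with LPS for 24 h in place of saline. There, 4842 genes (34.8%) were called: 3461 (24.9%) were higher and 1381 (9.93%) lower in RiboTag than in sorted cells, with 3 libraries of each method. Of the genes higher in saline, 2991 were also higher in LPS, which is 77.5% of the saline list and 86.4% of the LPS list. Of the genes lower in saline, 907 were also lower in LPS, which is 53.5% of the saline list and 65.7% of the LPS list. In opposite directions were 10 genes higher in saline and lower in LPS, and 11 the reverse. All 19 neutrophil genes were lower in LPS as well, as were 22 of 25 immediate early and 18 of 26 cytokine genes.

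Homeostatic genes were lower in 11 of 23 under LPS, against 21 of 23 in saline, but a different number of calls is no test of a difference. The direct test, the saline difference minus the LPS difference, was called for 36 of 13908 genes (0.259%). Among the genes named here it was called for Hsph1 only, whose difference was 2.41 in saline and -0.02 in LPS (interaction adjusted p = 0.0421). Under LPS, Hsph1 was at 14.1, 14.6 and 17.4 RPKM in the pulldowns and 12.3, 15.2 and 19.8 RPKM in sorted cells, so the groups overlapped there. For Ptprc the difference was -3.64 in saline and -3.34 in LPS, and for Zfp36 it was -5.36 and -5.60.

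**Figure D5:**
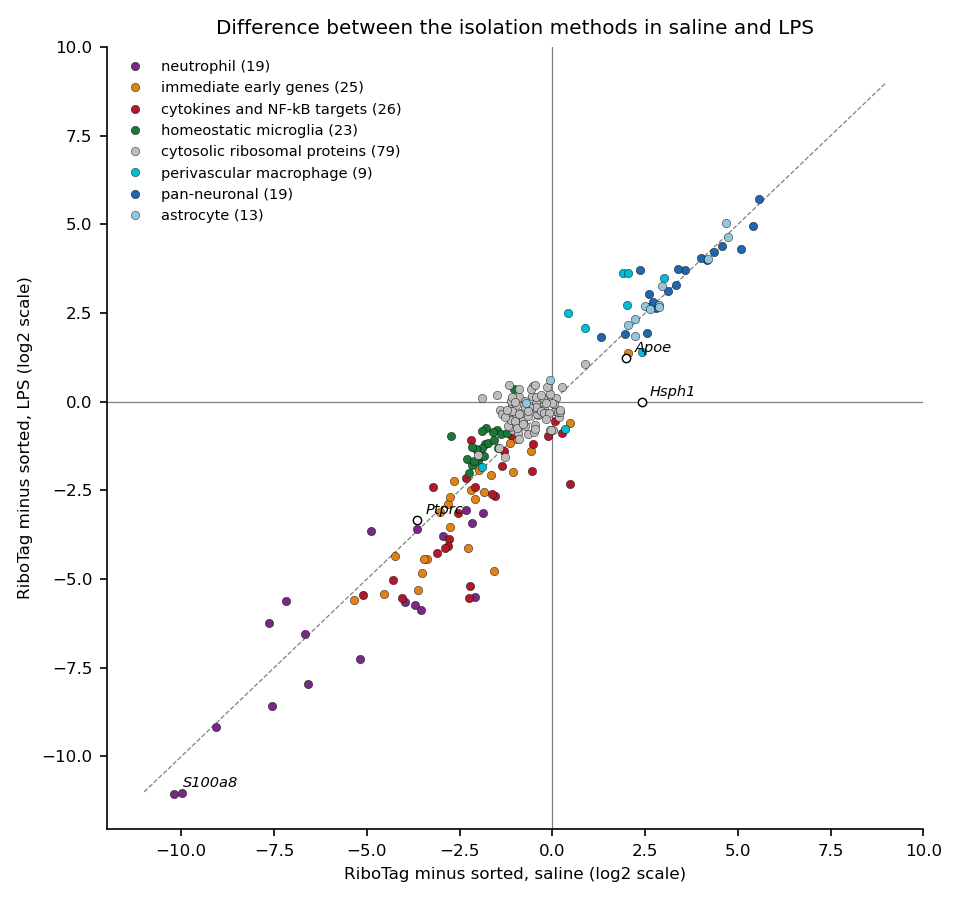
Difference between the methods, RiboTag minus sorted on the log2 scale, in saline (horizontal axis, 4 against 3 libraries) and in LPS (vertical axis, 3 against 3 libraries) for the tested members of 8 gene lists, with Ptprc, Hsph1 and Apoe as open circles. Each point is a gene and the dashed line marks equal differences; neutrophil genes lie at the lower left, neuronal and astrocyte genes at the upper right, and Hsph1 lies near 0 in LPS.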

How the data were processed

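RNA-seq values came from 1 deposited table of 43346 genes and 70 libraries, with 0 columns outside the series, of which the saline and LPS libraries of both methods were fitted. The authors deposited RPKM and annotated gene lengths in bases. CASAVA, TopHat2, featureCounts and the mm10 build are named per the submitters' processing notes. Their versions, and whether counting used strand, are not given in the sources used here.

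RPKM was taken as deposited, with no further scaling. Genes whose mean over the fitted libraries reached 1 RPKM were tested with limma 3.58.1 (R 4.3.3, empirical Bayes with a mean trend) on log2(RPKM + 1). The fit had 4 group means, so that saline and LPS groups of both methods shared 1 estimate of the spread. Genes were called at a Benjamini-Hochberg adjusted p under 0.05 over all genes tested. The RPKM steps gave whole reads for 100% of values (tolerance 0.01, after adding 1 base to each length), and limma voom on those reads was an alternative. That test called 5466 genes in saline and 4869 in LPS. In every library, all 37 mitochondrial genes were listed at 0. The intended symbols of 27 entries that a spreadsheet had turned into dates were restored from their gene identifiers.

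The members and lists were chosen with earlier results of these data known. Genes were named by a rule. It took the 12 highest and 12 lowest called genes whose groups did not overlap, 10 in each direction among genes at least 4 times above bulk input in the Poly(I:C) study, up to 4 members per list by smallest p, and a fixed set of tag, gate, microglial, neutrophil and stress genes. Predicted genes, clones and pseudogenes were left out. Further list members, such as Dusp1, Egr1, Tnf, Ccr2, Ccl12, Ighm and C1qb, were chosen after their values were seen. Some list members are not reported here. Promoter windows came from RefSeq on GRCm38.p6. The code was tested on simulated data. A limit on false calls was set only for data in which every group had the spread of the pulldowns.

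Alternatives were a pseudocount of 0.1 RPKM, no filter, a filter of 5 RPKM, median-of-ratios scaling, a fold limit of 2, a fit restricted to the 2 groups compared, a replicate block, array weights, voom, the Poly(I:C) study's pulldowns in place of those used here, leaving out each library, and bounds of 2 and 8 times the input. The removal of RiboTag replicates 3 and 4 together, and scaling to the homeostatic genes, were added after seeing the data.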

Additional observations from a re-analysis of the deposited data

Results flagged for a closer look

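The difference between the methods depended on treatment for Hsph1 among the genes named. Its RiboTag minus sorted difference was 2.43 larger on the log2 scale in saline than in LPS, by the interaction term of the limma fit (adjusted p = 0.0421). The sorted libraries carried that contrast: they were at 0.119, 1.62 and 1.29 RPKM in saline and 12.3, 15.2 and 19.8 RPKM in LPS.

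In 7 of the 129 genes named, 1 of the 4 saline pulldowns stood far from the other 3, with a gap to its nearest neighbour, as a share of the group's range, past Dixon's critical value. Chance flags about 1 in 20 such groups. The neutrophil genes S100a8, S100a9 and Mmp8 were high in pulldown 2, with gaps of 0.858, 0.915 and 0.845 of the range. Ly6g had reads only in pulldown 1, a gap of 1.0. Pulldown 4 was low for Igf1, at 0.846 RPKM with a gap of 0.883, and for Vsnl1, at 29.4 RPKM with a gap of 0.951. It was high for Rian, at 30.05 RPKM with a gap of 0.872. In each of the 7 genes the groups did not overlap with or without that pulldown.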

How the results depend on the processing

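In saline, the number of genes called (5555) was 2044 with a filter of 5 RPKM (978 higher and 1066 lower), 11861 with no filter (10050 higher and 1811 lower), 3623 without RiboTag replicates 3 and 4, and 10169 after scaling to the homeostatic genes (9825 higher and 344 lower). In LPS (4842), it was 1613 with the filter of 5 RPKM (767 higher and 846 lower), 10529 with no filter (9059 higher and 1470 lower) and 7754 after that scaling (7338 higher and 416 lower). The filters change how many genes are tested, and the scaling moves the median over all genes to 1.54. The other alternatives kept both counts within 1.5 times, and leaving out 1 library gave 4583 to 6654 genes in saline and 3857 to 5380 in LPS. With a replicate block, 4072 genes were called in saline (3166 higher and 906 lower) and 3377 in LPS, but same-numbered libraries correlated at -0.0358, 0.0553 and -0.00925 in saline and 0.0612 and 0.0231 in LPS, and not every library correlated best with its own number. The numbers therefore show no pairing. Of the 129 genes named, 81 kept their saline call and direction under every alternative.

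Scaling to the homeostatic genes turned the sign in saline to 0.19 for Atf4, 0.066 for C1qa, 1.04 for C1qb, 0.54 for C1qc, 1.19 for Ccl12, 0.67 for Cd9, 0.39 for Ctsd, 0.039 for Dnajb1, 0.91 for Fcrls, 1.15 for Glul, 0.56 for Ighm, 0.62 for Itgb5, 0.031 for Laptm5, 0.14 for Lgmn, 0.68 for Neat1, 0.074 for P2ry12, 1.56 for Slc1a3, 0.15 for Tmem119, 0.31 for Trem2 and 0.29 for Tyrobp, and in LPS to 1.16 for Hsph1. Without RiboTag replicates 3 and 4, 12 named genes were no longer called: Asns, C1qa, C1qc, Cd9, Clec7a, Hist1h1c, Ighm, Itgb5, Klrd1, Lgals3, Trem2 and Vcan. With array weights 13 were no longer called, P2ry12, Tmem119, Trem2 and Tyrobp among them, and with the block 13, Tmem119 and Tyrobp among them. The cause was not tested. Leaving out 1 library took the adjusted p of Cd9 to at most 0.122 and of Lgals3 to 0.0748 (both without sorted replicate 2), of Clec7a to 0.133 and of C1qc to 0.0562 (both without sorted replicate 3), of Itgb5 to 0.0625 and of Ighm to 0.102 (both without RiboTag replicate 4). It brought C1qb (0.0289), Fcrls (0.0154) and Glul (0.0196) to a call without RiboTag replicate 2, Ccl12 (0.0453) without sorted replicate 3, and Slc2a5 (0.0411) without LPS sorted replicate 3. At this depth, a gene with 0 reads in a library is bounded only at 3 reads.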
